A study of Mus musculus with 12 samples.

Results

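The 9 genes described here are Pik3ca, Pik3r1, Pdpk1, Akt1, Akt2, Tsc1, Mtor, Rptor and Rictor, which encode core enzymes and subunits of the route from phosphoinositide 3-kinase (PI3K) through Akt to the kinase mTOR. Every probe set of the array whose only gene symbol was one of these names was taken. That rule uses no measured value, but the 9 genes were listed with earlier results of these data known. This gave 33 probe sets among the 34945 that carried a single symbol, and 9 genes of 18193. The samples were skeletal muscle of C57Bl/6 mice on 12 Affymetrix arrays, in 3 groups of 4. All mice ate standard chow (13% of calories from fat) up to an age of 6 weeks, and no genotype or agent other than diet was named. The chow group stayed on that food, and the other groups were moved to a high-fat diet, with 46% of calories as fat, and sampled after 5 or after 42 days. The series is titled for insulin resistance in mice on a high-fat diet, with chow as the control of both times. Sex, the muscle taken, how old the chow mice were when sampled and any batch are not given in the labels, so time on the diet and age cannot be told apart. The labels do not record whether the 4 replicates came from separate animals, and the p-values cover no more than the spread among these samples, which may be technical.

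PI3K is a pair of proteins, a catalytic subunit (from Pik3ca) and a regulatory subunit (from Pik3r1), that is drawn to activated insulin receptor substrates and phosphorylates a lipid of the cell membrane. That lipid recruits the kinase PDK1 (from Pdpk1) and the Akt kinases, and Akt becomes active once PDK1 and the mTOR complex that holds Rictor have phosphorylated it. Akt in turn relieves the brake that the Tsc1-Tsc2 complex sets on the other mTOR complex, which holds raptor (from Rptor) and drives protein synthesis. In muscle, insulin stimulates glucose uptake and glycogen synthesis through this route, with Akt2 as the Akt form most closely tied to glucose uptake. The proteins act through phosphorylation, which an expression array does not measure, so every value below is a transcript level. In a bulk sample, fewer cells of a type and less RNA per cell cannot be told apart.

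The sequences just before the transcription starts of Pik3r1 and Rptor are shown because these genes held the largest rises among the 33 probe sets at 42 days. The windows are the 250 bases upstream of a start in RefSeq on GRCm38.p6, read in the direction of transcription, with matches to the GC box GGGCGG (on either strand, so also CCGCCC) in capitals. Pik3r1 spans chr13:101680761-101768217 on the minus strand and has 2 annotated starts in the table, of which the downstream one lies within the gene. Its first window is chr13:101768218-101768467 and its second chr13:101692631-101692880, both on the minus strand. Rptor spans chr11:119602905-119899591, and its window is chr11:119602655-119602904 on the plus strand.
Pik3r1 upstream start: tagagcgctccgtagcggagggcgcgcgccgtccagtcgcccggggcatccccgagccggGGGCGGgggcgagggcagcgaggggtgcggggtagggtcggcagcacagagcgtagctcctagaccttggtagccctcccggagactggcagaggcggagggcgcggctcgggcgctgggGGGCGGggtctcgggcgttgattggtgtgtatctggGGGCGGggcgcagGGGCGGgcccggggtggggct
Pik3r1 downstream start: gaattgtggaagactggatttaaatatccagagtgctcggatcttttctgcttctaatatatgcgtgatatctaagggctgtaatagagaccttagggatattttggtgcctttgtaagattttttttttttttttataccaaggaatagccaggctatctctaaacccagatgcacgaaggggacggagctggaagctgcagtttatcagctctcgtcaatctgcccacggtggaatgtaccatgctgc
Rptor start: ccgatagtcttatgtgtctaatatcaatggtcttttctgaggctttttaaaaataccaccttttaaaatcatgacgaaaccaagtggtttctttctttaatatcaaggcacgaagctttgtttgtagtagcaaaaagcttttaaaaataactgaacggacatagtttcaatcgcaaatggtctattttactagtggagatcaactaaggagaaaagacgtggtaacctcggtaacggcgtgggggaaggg
The first Pik3r1 window held 4 GC boxes and 76.4% G and C bases, while the second held 0 GC boxes and 42.4%. The Rptor window held 0 GC boxes and 37.6% G and C bases, against a median of 52.4% over the 32851 mouse windows. Of the 15 windows of the 9 genes, 7 held a GC box, each in a different gene (Akt1, Akt2, Mtor, Pdpk1, Pik3ca, Pik3r1 and Rictor), against 32.7% of all windows. The FoxO-type element GTAAACA was present in 1 of the 15, an Akt1 window, against 3.17% of all windows. The E-box CACGTG and the cyclic AMP response element TGACGTCA were in 0 of the 15, against 6.02% and 1.55%. Both strands were searched for each motif and neighbouring GC boxes may overlap. A match is a description of the sequence, not a binding site.

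The 10 muscle fibre markers (among them Acta1, Ckm and Myh4) had means from 11.83 (Tnnt1) to 15.43 (Ckm) on the log2 scale, and 0 of 10 passed the test in any comparison. Markers of some other cells moved between groups. The mean of 10 white adipocyte markers ranged from 10.7 to 11.6 over the chow arrays, 10.3 to 10.7 at 5 days and 10.2 to 11.0 at 42 days, with 2 of 10 lower at 5 days and 0 of 10 past the test at 42 days. Of 7 hepatocyte markers, 6 rose at 42 days, with list means of 8.75 to 9.08 on chow and 9.46 to 10.6 at 42 days. Of 6 tendon markers 4 rose (8.64 to 8.84 against 9.18 to 9.49), and of 6 fibroblast markers 3 rose (11.4 to 11.9 against 12.0 to 12.2). Of the hepatocyte markers Cyp2e1 had fallen at 5 days (-1.18, adjusted p = 0.0355), when 0 of the other 6 passed. Of 8 endothelial markers 2 rose at 5 days (Vwf and Cldn5) and 1 at 42 days (Pecam1), and the list means were 8.90 to 9.08 on chow, 8.98 to 9.36 at 5 days and 8.98 to 9.14 at 42 days. Of 7 macrophage markers 1 rose at 42 days, and 0 of the lymphocyte, brown adipocyte, Schwann cell and satellite cell markers passed against chow. No value of the array was 0, the lowest being 3.67. The array medians of all probe sets ran from 7.65 to 7.69 on chow, 7.60 to 7.63 at 5 days and 7.66 to 7.70 at 42 days. Every 5-day median thus lay below those of both other groups. No array duplicated another.

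**Figure D1:**
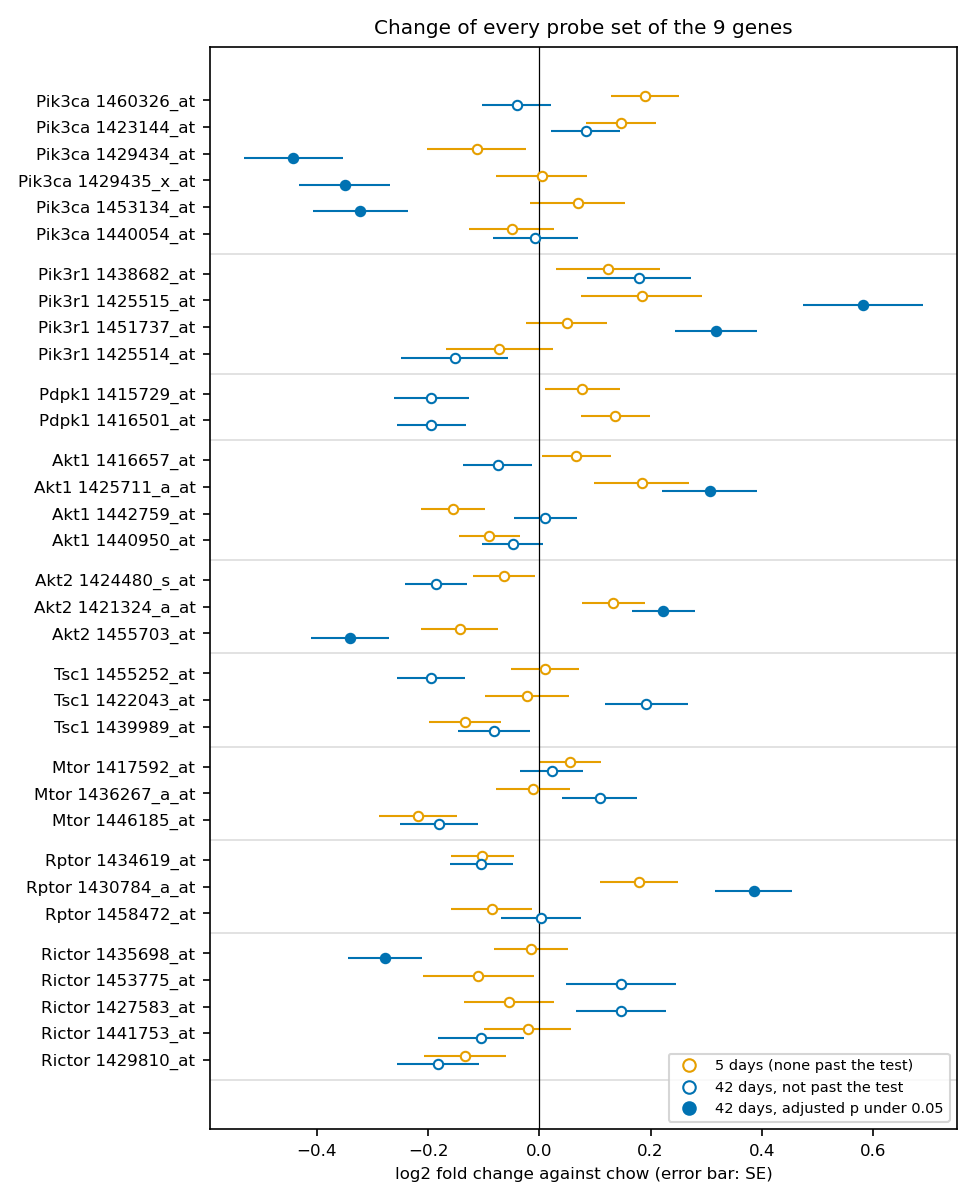
Log2 fold change against chow (horizontal axis, bar: SE) of each of the 33 probe sets, grouped by gene, at 5 days (orange) and 42 days (blue) with 4 arrays per group. Filled blue points are the 10 probe sets with an adjusted p under 0.05 at 42 days, 5 to the right of 0 and 5 to the left, and 0 points at 5 days passed.

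After 5 days of the high-fat diet 0 of the 33 probe sets differed from chow by limma at a Benjamini-Hochberg adjusted p under 0.05, while 3.21% of all 45037 probe sets did (1.53% higher, 1.68% lower). Of the 33, 8 had an unadjusted p under 0.05, a share of 24.2% that is near the 24.1% of all probe sets, and the changes of the 33 ran from -0.22 to 0.19 (log2 fold change). After 42 days 10 of 33 (30.3%) differed from chow, against 8.78% of all probe sets. Of those 10, 5 rose and 5 fell, where 4.65% of all probe sets rose and 4.13% fell. Between 42 and 5 days 9 of 33 (27.3%) differed, 2 higher and 7 lower at 42 days, against 5.98% of all probe sets (2.38% higher, 3.59% lower). The median change of the 33 was -0.01 at 5 days and -0.05 at 42 days against chow, beside -0.02 and -0.01 over all probe sets. The comparisons at 5 and 42 days share the 4 chow arrays and are not independent of each other.

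These counts depended on single arrays. The 10 of 33 at 42 days became 5 without chow array 3 or without 42-day array 2, 6 without 42-day array 4, 7 without chow array 4, 9 without chow array 2, 42-day array 1 or 42-day array 3, and 12 without chow array 1. The 4 calls that stayed past the test in each of the 12 fits that left out 1 array were Pik3ca 1429434_at, Pik3r1 1425515_at, Akt2 1455703_at and Rptor 1430784_a_at. The 9 of 33 between 42 and 5 days became 0 without 5-day array 2 or 3 or 42-day array 1 or 4, 1 without 42-day array 2, 4 without 42-day array 3 and 5 without chow array 2, chow array 4 or 5-day array 1. It was 4 after quantile normalization, 2 after cyclic loess and 10 with each array centred on its median. The share of all called probe sets that were higher also moved with the centring, from 47.5% to 85.3% at 5 days and from 39.9% to 9.69% between 42 and 5 days, and only from 53.0% to 51.6% at 42 days against chow.

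Pik3ca (chr3:32397065-32466112), the catalytic subunit, was lower at 42 days in 3 of its 6 probe sets, by 1.25- to 1.36-fold. The probe set 1429434_at read 9.64, 9.79, 9.83 and 9.79 on chow, 9.61, 9.54, 9.93 and 9.52 at 5 days, and 9.27, 9.20, 9.50 and 9.31 at 42 days. All 4 of the 42-day arrays lay below every other array, and the chow and 5-day values overlapped. Its mean fell from 9.76 ± 0.085 to 9.32 ± 0.13 (SD, n = 4), a log2 fold change of -0.44 ± 0.089 (SE, adjusted p = 0.00698 by limma). It was at -0.11 ± 0.089 after 5 days (adjusted p = 0.456), and 42 days lay below 5 days by -0.33 ± 0.089 (adjusted p = 0.044).

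The probe set 1429435_x_at, whose suffix marks possible cross-hybridisation, read 9.41, 9.56, 9.53 and 9.57 on chow, 9.47, 9.42, 9.76 and 9.43 at 5 days, and 9.11, 9.03, 9.32 and 9.20 at 42 days. It fell by 0.35 ± 0.082 on the log2 scale against chow (adjusted p = 0.0157), with the 42-day arrays again apart from both other groups. Without 42-day array 2 its adjusted p was 0.0523. The probe set 1453134_at read 9.27, 9.54, 9.46 and 9.53 on chow, 9.44, 9.38, 9.69 and 9.57 at 5 days, and 8.96, 9.07, 9.28 and 9.19 at 42 days. Its highest 42-day array just passed its lowest chow array, so those groups overlapped, while 42 and 5 days did not. It fell by 0.32 ± 0.086 (adjusted p = 0.0299), and the call was lost without chow array 2, 3 or 4 or 42-day array 1, 2 or 4 (adjusted p up to 0.0914). These 3 probe sets were designed on the same target accession, so they are not independent readings of the gene.

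The other 3 Pik3ca probe sets did not pass the test against chow at either time. The brightest, 1460326_at, read 10.24 to 10.33 on chow, 10.40 to 10.53 at 5 days and 10.09 to 10.34 at 42 days, so the 5-day arrays lay above both other groups. Its change was 0.19 ± 0.062 at 5 days (adjusted p = 0.0872) and -0.04 ± 0.062 at 42 days (adjusted p = 0.754), and only the difference of 42 from 5 days passed (-0.23 ± 0.062, adjusted p = 0.0431). The probe set 1423144_at was at 0.15 at 5 days and 0.08 at 42 days, and 1440054_at, a dim one with a mean of 7.24, at -0.05 and -0.01. For 1429435_x_at and 1453134_at, 42 days was below 5 days too, by -0.35 ± 0.082 (adjusted p = 0.029) and -0.39 ± 0.086 (adjusted p = 0.0258).

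Pik3r1, the regulatory subunit that steadies and inhibits the catalytic one until a receptor signal arrives, was higher at 42 days in 2 of its 4 probe sets, by 0.58 and 0.32 on the log2 scale. The gene makes a long and shorter protein forms from separate starts, the windows of which are printed above. The probe set 1425515_at read 8.65, 8.49, 8.44 and 8.64 on chow, 8.74, 8.84, 8.46 and 8.92 at 5 days, and 8.91, 8.99, 9.32 and 9.33 at 42 days. Each 42-day array lay above each chow array, and 5 days overlapped with both. The mean rose from 8.56 ± 0.10 on chow to 9.14 ± 0.22 at 42 days (SD, n = 4), a log2 fold change of 0.58 ± 0.11 (SE, adjusted p = 0.00439), the largest of the 33 at 42 days. It was at 0.18 ± 0.11 at 5 days (adjusted p = 0.31), and 42 days exceeded 5 days by 0.40 ± 0.11 (adjusted p = 0.0449).

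The probe set 1451737_at read 8.47, 8.35, 8.36 and 8.46 on chow, 8.54, 8.54, 8.23 and 8.53 at 5 days, and 8.63, 8.73, 8.73 and 8.81 at 42 days. The 42-day arrays lay above all the others, and chow and 5 days overlapped. It rose by 0.32 ± 0.073 at 42 days (adjusted p = 0.0147), a call that was lost without chow array 3 or 42-day array 4 (adjusted p up to 0.054), and it exceeded 5 days by 0.27 ± 0.073 (adjusted p = 0.0453). The brightest probe set, 1438682_at, read 10.16 to 10.61 on chow and 10.43 to 10.80 at 42 days, and its 0.18 ± 0.093 did not pass the test (adjusted p = 0.271). The last, 1425514_at, went the other way, with 8.24 to 8.58 on chow, 8.21 to 8.42 at 5 days and 8.15 to 8.55 at 42 days, at -0.15 ± 0.096 (adjusted p = 0.377). Of these, 1425515_at, 1451737_at and 1425514_at share a target accession, and the values of 1425514_at at 42 days overlapped with chow.

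Pdpk1 (chr17:24073680-24155619), the kinase that phosphorylates the activation loop of Akt, was lower at 42 days than at 5 days in both of its probe sets. The probe set 1415729_at read 11.12, 11.27, 11.39 and 11.26 on chow, 11.34, 11.37, 11.46 and 11.19 at 5 days, and 11.02, 11.07, 11.10 and 11.08 at 42 days. The probe set 1416501_at read 8.54, 8.78, 8.60 and 8.71 on chow, 8.80, 8.81, 8.86 and 8.71 at 5 days, and 8.41, 8.51, 8.45 and 8.48 at 42 days. In both, the 42-day arrays were the lowest 4 of the 12, and chow overlapped with 5 days. The difference of 42 from 5 days was -0.27 ± 0.068 (adjusted p = 0.0353) for 1415729_at and -0.33 ± 0.062 (adjusted p = 0.0194) for 1416501_at. Against chow both were at -0.19 at 42 days, with adjusted p = 0.09 and 0.064, which did not pass, and at 0.08 and 0.14 at 5 days. The order of the means was 42 days, chow and 5 days from low to high, and chow did not differ from either neighbour at the threshold.

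Akt1 (chr12:112653821-112674884), the widely expressed Akt form, was higher at 42 days in 1 of 4 probe sets. The probe set 1425711_a_at, whose suffix marks probes shared by several transcripts of the gene, read 9.45, 9.32, 9.33 and 9.24 on chow, 9.45, 9.50, 9.37 and 9.76 at 5 days, and 9.48, 9.62, 9.66 and 9.81 at 42 days. The lowest 42-day array stood just above the highest chow array, and 5 days overlapped with both. The mean rose from 9.34 ± 0.086 to 9.64 ± 0.14 (SD, n = 4), by 0.31 ± 0.086 (adjusted p = 0.0372). That call was lost without any 1 of 6 arrays (chow 2, 3 and 4 and 42-day 2, 3 and 4, adjusted p up to 0.121). The brightest probe set, 1416657_at, was at -0.07 ± 0.062 (adjusted p = 0.524), and 1442759_at and 1440950_at at 0.01 and -0.05. At 5 days the 4 probe sets were at 0.07, 0.18, -0.16 and -0.09 in the order 1416657_at, 1425711_a_at, 1442759_at and 1440950_at, with the smallest adjusted p at 0.12.

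Akt2 (chr7:27591552-27640826) had 1 probe set that rose and 1 that fell at 42 days, which made it the only one of the 9 genes with calls in both directions, where 179 of the 9010 genes with several probe sets (1.99%) had them. The probe set 1421324_a_at read 10.26, 10.18, 10.20 and 10.13 on chow, 10.28, 10.30, 10.32 and 10.39 at 5 days, and 10.35, 10.49, 10.34 and 10.48 at 42 days. Chow lay below both diet groups on every array, and 5 and 42 days overlapped. It rose by 0.22 ± 0.057 at 42 days (adjusted p = 0.0245), was at 0.13 ± 0.057 at 5 days (adjusted p = 0.172), and lost its 42-day call without chow array 3 or 4 or 42-day array 2 or 4 (adjusted p up to 0.0827).

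The Akt2 probe set 1455703_at read 9.20, 9.13, 9.31 and 9.28 on chow, 9.12, 8.98, 9.26 and 8.98 at 5 days, and 8.92, 8.96, 8.87 and 8.81 at 42 days. Every 42-day array lay below every other array, and the mean fell from 9.23 ± 0.081 to 8.89 ± 0.066 (SD, n = 4), by 0.34 ± 0.070 on the log2 scale (SE, adjusted p = 0.00773). At 5 days it was at -0.14 ± 0.070 (adjusted p = 0.222). The third and brightest, 1424480_s_at, whose suffix marks probes that may match several genes, read 12.07, 11.95, 12.15 and 12.05 on chow, 12.03, 11.95, 11.99 and 12.00 at 5 days, and 11.83, 11.95, 11.82 and 11.88 at 42 days. Its -0.19 ± 0.056 at 42 days just missed the threshold (adjusted p = 0.0502), and its groups at 42 days and on chow met at 11.95 without overlap.

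**Figure D2:**
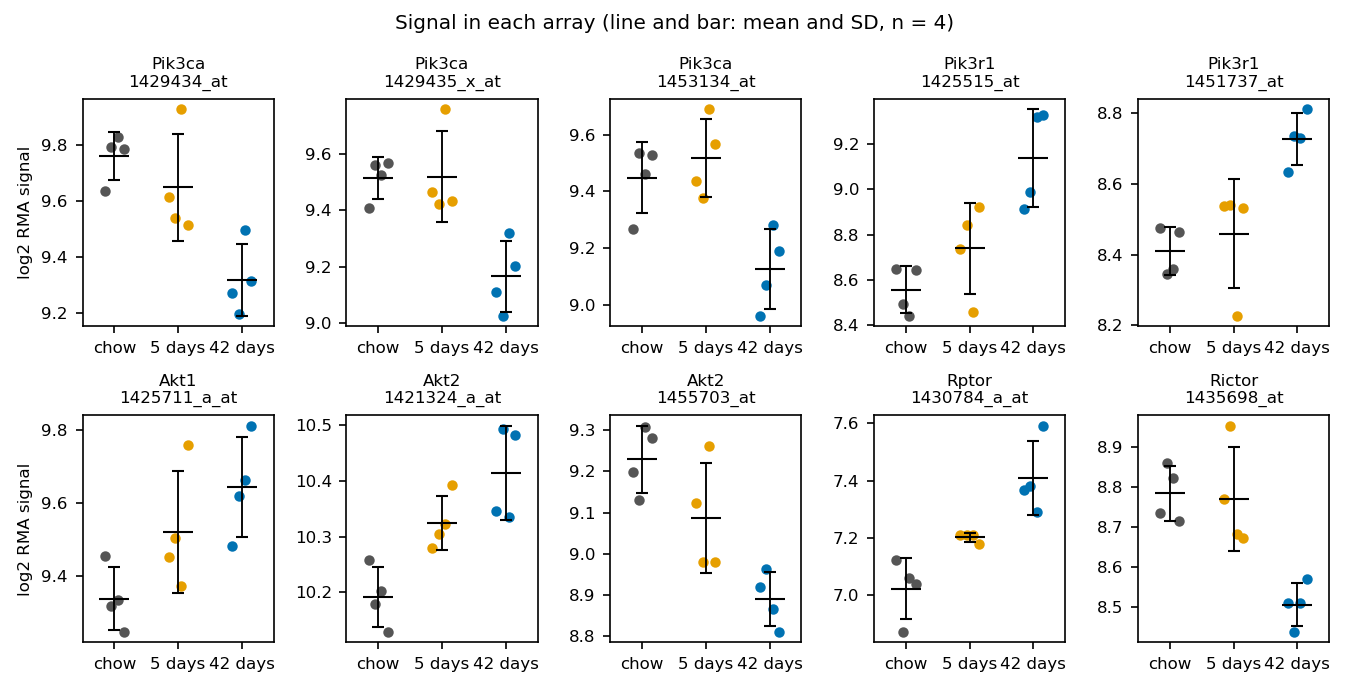
Log2 RMA signal on each array (points; n = 4 per group) of the 10 probe sets past the test at 42 days against chow, with the group mean (line) and SD (bar). The panels were chosen by that test, so the gap between chow and 42 days is a description, and in Pik3ca 1453134_at these groups overlap. The vertical axes differ between panels and do not start at 0.

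Tsc1 (chr2:28640993-28691172), the stabilising partner of Tsc2 in the complex that restrains mTOR, had no probe set past the test in any comparison. The brightest, 1455252_at, read 10.40, 10.40, 10.53 and 10.41 on chow, 10.44, 10.50, 10.55 and 10.29 at 5 days, and 10.27, 10.22, 10.23 and 10.24 at 42 days. The probe set 1422043_at read 8.12, 8.02, 7.93 and 7.95 on chow, 7.75 to 8.09 at 5 days, and 8.23, 8.13, 8.16 and 8.26 at 42 days. The 42-day arrays were the lowest 4 of the 12 in the former and the highest 4 in the latter. Their changes at 42 days were -0.19 ± 0.061 (adjusted p = 0.0621) and 0.19 ± 0.075 (adjusted p = 0.13). The dim 1439989_at, with a mean brighter than only 11.3% of probe sets, was at -0.08 at 42 days and -0.13 at 5 days.

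Mtor (chr4:148448582-148557685), the kinase common to both complexes, also had no probe set past the test. The brightest, 1417592_at, read 10.01 to 10.22 on chow, 10.18 to 10.22 at 5 days and 10.11 to 10.22 at 42 days, and its changes were 0.06 ± 0.056 and 0.02 ± 0.056. The probe set 1446185_at had the smallest p of the 33 at 5 days. It read 6.85, 6.74, 6.83 and 6.80 on chow, 6.76, 6.52, 6.42 and 6.64 at 5 days, and 6.68, 6.64, 6.65 and 6.53 at 42 days. Its changes of -0.22 ± 0.070 at 5 days (adjusted p = 0.0837) and -0.18 ± 0.070 at 42 days (adjusted p = 0.128) did not pass, and only 28.2% of probe sets were dimmer. The third, 1436267_a_at, was at -0.01 and 0.11.

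Rptor, which encodes the scaffold raptor that brings substrates to mTOR, had the smallest p of the 33 at 42 days. Its probe set 1430784_a_at read 7.12, 6.87, 7.06 and 7.04 on chow, 7.21, 7.21, 7.21 and 7.18 at 5 days, and 7.37, 7.38, 7.29 and 7.59 at 42 days. The 3 groups did not overlap, with chow lowest and 42 days highest. This probe set is a dim one, with a mean of 7.21 over the 12 arrays, and only 40.1% of probe sets were dimmer. The mean rose from 7.02 ± 0.11 to 7.41 ± 0.13 at 42 days (SD, n = 4), by 0.39 ± 0.069 on the log2 scale or 1.31-fold (adjusted p = 0.00355). It was at 0.18 ± 0.069 at 5 days (adjusted p = 0.136), and 42 days lay 0.21 ± 0.069 above 5 days (adjusted p = 0.0815), so only the outer groups of that order differed at the threshold. The brighter 1434619_at read 10.13 to 10.30 on chow and 10.04 to 10.15 at 42 days, at -0.10 ± 0.057 (adjusted p = 0.295), and 1458472_at was at 0.00 ± 0.072 (adjusted p = 0.988).

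Rictor (chr15:6708349-6800401), the subunit that defines the mTOR complex acting on Akt, had 5 probe sets with 3 signs below and 2 above 0 at 42 days. The brightest, 1435698_at, read 8.74, 8.86, 8.82 and 8.72 on chow, 8.77, 8.95, 8.68 and 8.67 at 5 days, and 8.51, 8.44, 8.51 and 8.57 at 42 days. The 42-day arrays lay below all the others. The mean fell from 8.79 ± 0.069 on chow to 8.51 ± 0.054 (SD, n = 4), by 0.28 ± 0.067 (adjusted p = 0.018), and it lay below 5 days by -0.26 ± 0.067 (adjusted p = 0.0364). The call against chow was lost without chow array 3 or 42-day array 2 (adjusted p up to 0.0576).

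The other 4 Rictor probe sets were dim, with means brighter than 23.6% to 31.0% of all probe sets, and 0 of 4 passed the test in any comparison. The probe set 1453775_at read 6.94, 6.69, 6.84 and 6.71 on chow, 6.51, 6.81, 6.51 and 6.92 at 5 days, and 6.82 to 7.12 at 42 days. The probe set 1427583_at read 6.61, 6.61, 6.68 and 6.42 on chow, 6.43 to 6.71 at 5 days, and 6.78, 6.88, 6.61 and 6.63 at 42 days. All groups of these 2 probe sets overlapped. Their changes at 42 days against chow were 0.15 ± 0.099 (adjusted p = 0.414) and 0.15 ± 0.081 (adjusted p = 0.3). The probe sets 1441753_at and 1429810_at were at -0.10 ± 0.077 (adjusted p = 0.463) and -0.18 ± 0.074 (adjusted p = 0.144).

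Whether probe sets of a gene disagreed was tested directly. For each array the signal of the gene's brightest probe set was subtracted from that of each other one, and limma was run on the 24 such differences of the 9 genes together with all 16752 of the array. At 42 days against chow 11 of 24 pairs, in 7 genes, changed unequally at an adjusted p under 0.05, against 21.8% of all pairs. At 5 days 0 of 24 did (2.25% of all pairs), and between 42 and 5 days 7 of 24, in 5 genes (15.6% of all pairs). An exact two-sided permutation test of 4 arrays against 4 cannot go below p = 0.0286. At 5 days 3 of the 24 pairs reached it, near the 10.9% of all pairs that did, and at 42 days 13 of the 24 (25% of all pairs). After adjustment over the 24 pairs 0 passed in either comparison. The 7 between 42 and 5 days became 2 without 42-day array 1 or 5-day array 3, 3 without 5-day array 2 or 42-day array 2, 3 or 4, and 4 after quantile normalization or cyclic loess.

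Rptor had the largest disagreement at 42 days, between a dim probe set (mean 7.21) and a bright one (mean 10.14). The difference of 1430784_a_at from 1434619_at was -3.12, -3.26, -3.25 and -3.12 on chow, -2.88, -2.98, -2.83 and -2.92 at 5 days, and -2.78, -2.66, -2.82 and -2.52 at 42 days. All 4 of the 42-day arrays and all 4 of the 5-day arrays stood above chow, and the change in the difference was 0.49 ± 0.075 at 42 days (adjusted p = 0.000744). For Akt2 the difference of 1421324_a_at from 1424480_s_at was -1.81, -1.77, -1.95 and -1.92 on chow, -1.75, -1.64, -1.67 and -1.61 at 5 days, and -1.48, -1.45, -1.49 and -1.40 at 42 days. The 3 groups stood apart in that order, with a change of 0.41 ± 0.064 at 42 days (adjusted p = 0.000799).

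In Rictor both 1427583_at and 1453775_at moved up relative to the falling 1435698_at, each by 0.42 at 42 days (SE 0.11 and 0.12, adjusted p = 0.0135 and 0.0187). Their own changes against chow, 0.15 each, did not pass, and both are dim. As both pairs share the fall of 1435698_at (-0.28), they are not separate readings. The difference of 1453775_at from 1435698_at was -1.80, -2.18, -1.98 and -2.00 on chow, -2.26, -2.15, -2.17 and -1.76 at 5 days, and -1.69, -1.31, -1.69 and -1.57 at 42 days. The 42-day arrays were above all others, and chow and 5 days overlapped. Between 42 and 5 days the same pairs differed by 0.47 ± 0.11 and 0.52 ± 0.12 (adjusted p = 0.0157 and 0.0134), and the remaining pairs, with 1441753_at and 1429810_at, did not pass.

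For Tsc1 the pair 1422043_at and 1455252_at changed unequally, by 0.39 ± 0.11 at 42 days against chow (adjusted p = 0.0203) and 0.42 ± 0.11 against 5 days (adjusted p = 0.0213), although neither probe set passed on its own. The Akt1 pair of 1425711_a_at and 1416657_at differed by 0.38 ± 0.10 (adjusted p = 0.0151). Within Pik3r1, 1425515_at rose more than 1438682_at by 0.40 ± 0.11 (adjusted p = 0.0155) and 1425514_at lay lower by -0.33 ± 0.074 (adjusted p = 0.00586). In Pik3ca 1429434_at, 1429435_x_at and 1453134_at lay lower relative to 1460326_at by -0.40, -0.31 and -0.28 (adjusted p from 0.00676 to 0.0168). Mtor and Pdpk1 had 0 pairs past this test at 42 days.

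**Figure D3:**
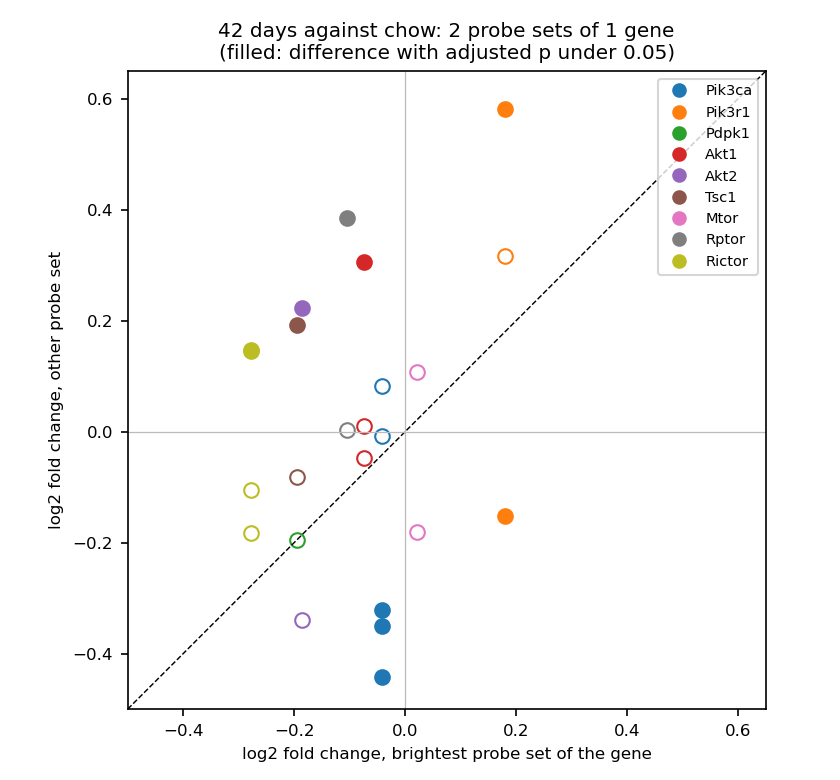
Log2 fold change at 42 days against chow of each gene's brightest probe set (horizontal axis) and of each of its other probe sets (vertical axis), 24 pairs of 9 genes coloured by gene. The 11 filled pairs changed unequally at an adjusted p under 0.05 and lie away from the dashed line of equal change, and the 2 Rictor pairs that passed fall on nearly the same point.

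The direction at 42 days went with the kind of target from which a probe set had been designed, a grouping made after the values were seen. All 5 rises were among the 12 member probe sets whose listed target is an mRNA entry, and all 5 falls among the 21 whose target is an expressed sequence tag (EST), a short read of a cDNA clone. The median change was 0.17 over the former and -0.10 over the latter. The Pik3ca falls share a single target, as do the Pik3r1 rises, so these calls are not separate readings. Between 42 and 5 days the split was not complete. Of those with an mRNA target 2 rose and 1 fell (Pdpk1 1416501_at, -0.33), and of those with an EST target 0 rose and 6 fell. Over all probe sets 6.60% of those with an mRNA target rose and 2.55% fell, and 4.32% of those with an EST target rose and 5.56% fell. By suffix, 3 of the 4 member probe sets ending in _a_at rose and 0 fell, where 11.5% of all such probe sets rose and 4.47% fell. The positions of the probes along each transcript were not used here.

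A measure taken from control transcripts moved between the groups as well, mostly through 1 of them. The labels describe cDNA primed from the poly(A) tail, and the array carries probe sets for the 3-prime and 5-prime ends of 4 control transcripts. The mean 3-prime minus 5-prime difference was 1.07 ± 0.063 on chow, 1.02 ± 0.075 at 5 days and 0.892 ± 0.078 at 42 days (log2, SD, n = 4), and the difference of 42 days from chow had p = 0.0571 in an exact two-sided permutation test, in which 0.0286 is the smallest p. For pyruvate carboxylase it was 1.93 ± 0.28 on chow and 1.24 ± 0.17 at 42 days, and for Gapdh 0.143 ± 0.022 and 0.0575 ± 0.013, in each without overlap between the groups. For beta-actin it was 0.138 ± 0.040 and 0.0548 ± 0.031, also without overlap. For the transferrin receptor it was 2.07 ± 0.18 and 2.22 ± 0.12, with overlap. The shift of the mean thus came mostly from pyruvate carboxylase. The mean over the 4 ran from 0.993 to 1.14 on chow and from 0.8245 to 0.9975 at 42 days. As these ranges barely meet, a fit with this covariate separates it from the diet group only weakly. With the mean difference over the 4 as a covariate 0 of the 33 passed at 42 days and 0 between 42 and 5 days. Of all 45037 probe sets 17 and 1 passed with this covariate, and 0 of the 24 pairs differed. The 10 changes called at 42 days without it all kept their sign, at 59.5% to 152% of their size, and their SEs were 1.38 to 1.57 times as large. The change of Pik3ca 1429434_at was -0.39 ± 0.14 in that fit (adjusted p = 0.232), that of Akt2 1421324_a_at 0.24 ± 0.089 (adjusted p = 0.246), that of Rptor 1430784_a_at 0.33 ± 0.11 (adjusted p = 0.202) and that of Rictor 1435698_at -0.42 ± 0.092 (adjusted p = 0.101). Among the smaller ones was Pik3r1 1425515_at, at 0.35 ± 0.15 (adjusted p = 0.315). With the mean log2 level of the adipocyte markers as a covariate 2 of 33 passed at 42 days (Pik3r1 1425515_at and Rptor 1430784_a_at), 5 of 24 pairs differed, and 1435 of all probe sets passed. In that fit the same 10 changes kept their sign at 78.1% to 109% of their size, with SEs 1.14 to 1.22 times as large. Beyond these fits, the part of RNA quality, adipocytes, tendon or liver transcripts in the members' changes was not tested.

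**Figure D4:**
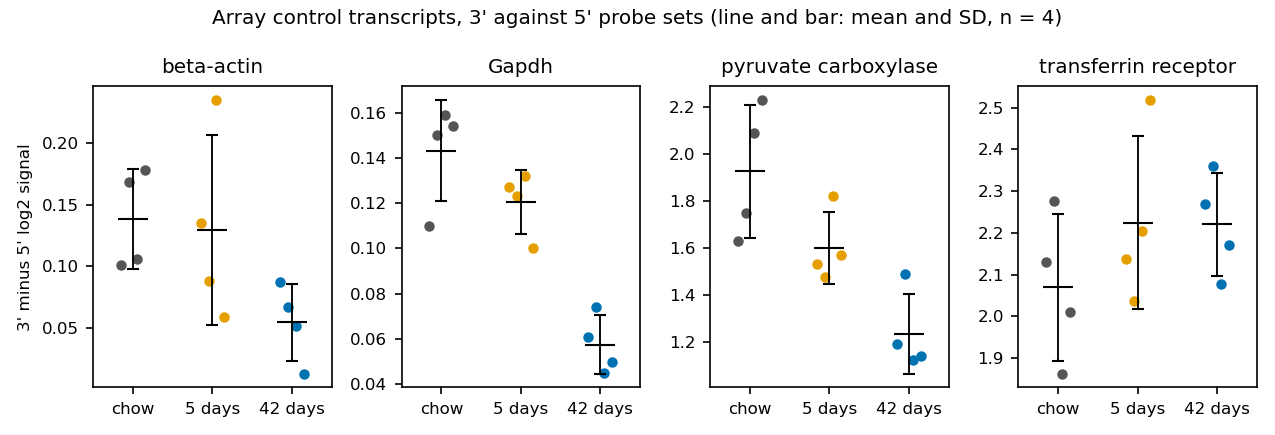
3-prime minus 5-prime log2 signal of 4 control transcripts on each array (points; n = 4 per group), with group mean (line) and SD (bar), on axes that differ between panels and do not start at 0. The 42-day points lie below all chow points for beta-actin, Gapdh and pyruvate carboxylase, and overlap with them for the transferrin receptor.

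Beyond the 9 genes, 94 other genes of the pathway were listed by role, of which 87 were measured with 201 probe sets. At 5 days 6 of these rose and 3 fell (4.48%, against 3.21% of all probe sets), at 42 days 24 rose and 13 fell against chow (18.4%, against 8.78%), and 4 rose and 11 fell between 42 and 5 days (7.46%, against 5.98%). Their median changes were 0.06, -0.01 and -0.05, beside -0.02, -0.01 and 0.03 over all probe sets. The 37 at 42 days became 20 without chow array 3 or 42-day array 4 and 23 without 42-day array 1, and the 9 at 5 days became 0 without chow array 3 or 5-day array 2, 1 without chow array 4 or 5-day array 4, and 5 without chow array 1, chow array 2 or 42-day array 3. The 15 between 42 and 5 days became 0 without 5-day array 2 or 3 or 42-day array 1 or 4, 1 without 42-day array 2 and 7 without 42-day array 3 or 5-day array 1.

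The counts by role at 42 days stand beside 4.65% of all probe sets that rose and 4.13% that fell. Around PI3K and Akt, 2 of 21 probe sets of other PI3K subunits rose at 42 days and 0 fell (9.52% in all, near the 8.78% of all probe sets). Of 10 for phosphoinositide phosphatases 3 rose, in 2 genes. Among 25 for Akt regulators 4 rose, in 2 genes, and 2 fell, in 2 genes. Ppp2r5c, a regulatory subunit of the phosphatase that can dephosphorylate Akt, rose at 5 days (0.40 ± 0.081, adjusted p = 0.0296) and at 42 days (0.59 ± 0.081, adjusted p = 0.000788) in 1425542_a_at. At 5 days 1425725_s_at rose too (0.26 ± 0.055, adjusted p = 0.0315), and the remaining Ppp2r5c probe sets did not pass. Of 27 probe sets for Akt substrates 3 rose and 2 fell at 42 days. Those that rose were 2 of the 4 probe sets of Tbc1d1, a Rab regulator of glucose transporter traffic, at 0.53 ± 0.11 for 1419448_at (adjusted p = 0.00671) and 0.44 ± 0.12 for 1419446_at (adjusted p = 0.0347), and 1 of Akt1s1, an Akt substrate that binds raptor (0.34 ± 0.075, adjusted p = 0.0108). Tbc1d1 1419446_at had already risen at 5 days (0.51 ± 0.12, adjusted p = 0.0397), although its groups overlapped. The other Tbc1d1 probe sets did not pass, with 1447016_at at -0.56 ± 0.18 (adjusted p = 0.0638), the lowest change of the pathway list at 42 days, and 1419447_s_at at 0.06 ± 0.095 (adjusted p = 0.774). Bad, a cell death protein that Akt phosphorylates, fell at 5 days in 1416582_a_at (-0.25 ± 0.054, adjusted p = 0.031), and its other probe set did not pass. Trib1, of a family of Akt-binding pseudokinases, rose at 5 days in 1424880_at (0.37 ± 0.085, adjusted p = 0.0372), and its other probe set did not pass. Pik3c3, the class III PI3K, also rose at 5 days (0.23 ± 0.058, adjusted p = 0.0476).

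Around mTOR, 0 of 18 probe sets of the other complex subunits rose and 1 fell at 42 days, and 0 of 6 of the Tsc2 and Rheb group rose and 1 fell. Of 34 probe sets for effectors of the raptor complex 5 rose and 4 fell. The 5 rises were in 5 genes, 1 probe set in each, and the other probe sets of those genes did not pass. Ulk1 and Ulk2, autophagy kinases that mTOR inhibits, rose by 0.50 ± 0.091 in 1416504_at and 0.47 ± 0.085 in 1448858_at (adjusted p = 0.00378 and 0.00387). The translation factor Eif4b rose by 0.33 ± 0.072 in 1426379_at (adjusted p = 0.0101). The translation repressor Eif4ebp1 fell by 0.35 ± 0.074 in 1434976_x_at (adjusted p = 0.00915). Of 13 probe sets for effectors of the Rictor complex 5 rose and 1 fell. They lay in 2 genes that only rose and 1 with both, so they are not separate readings. Ndrg1, a target of the kinases of the Sgk family, rose in 1450977_s_at (0.40 ± 0.073, adjusted p = 0.00399), and Sgk3 itself rose in 1420918_at (0.35 ± 0.070, adjusted p = 0.00638). Prkca, a protein kinase C, rose in 1427562_a_at (0.43 ± 0.091, adjusted p = 0.00846) and fell in 1437393_at (-0.39 ± 0.085, adjusted p = 0.0115).

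Among 47 probe sets for nutrient and stress regulators of mTOR 1 rose and 2 fell at 5 days, and 2 rose and 2 fell at 42 days, shares of 6.38% and 8.51%, the latter near the 8.78% of all probe sets. Rragd, a small GTPase that brings mTOR to the lysosome, had the largest rise of the list, in 1431164_at. It was 0.63 ± 0.13 at 5 days (adjusted p = 0.0302) and 1.08 ± 0.13 or 2.12-fold at 42 days (adjusted p = 0.000328). The other Rragd probe sets, 1434909_at and 1440555_at, did not pass against chow at either time. Prkaa2, the catalytic subunit of the AMP-activated kinase prominent in muscle, rose at 42 days in 1429464_at (0.49 ± 0.081, adjusted p = 0.00206). Its other probe sets did not pass. Depdc5 and Flcn, which act on the Rag GTPases, fell at 5 days in 1 probe set each, 1444996_at (-0.33 ± 0.070, adjusted p = 0.0302) and 1456744_x_at (-0.44 ± 0.11, adjusted p = 0.0438). The other genes counted at 42 days, named after their values were seen, were Pik3cd, Pik3c2a, Inpp5k, Inpp4b, Trib2, Eif4e and Grb10 on the higher side and Ppp2ca, Ppp2r5a, Gsk3b, Bad, Rhebl1, Deptor, Rps6, Eif4ebp2, Lamtor5 and Flcn on the lower.

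**Figure D5:**
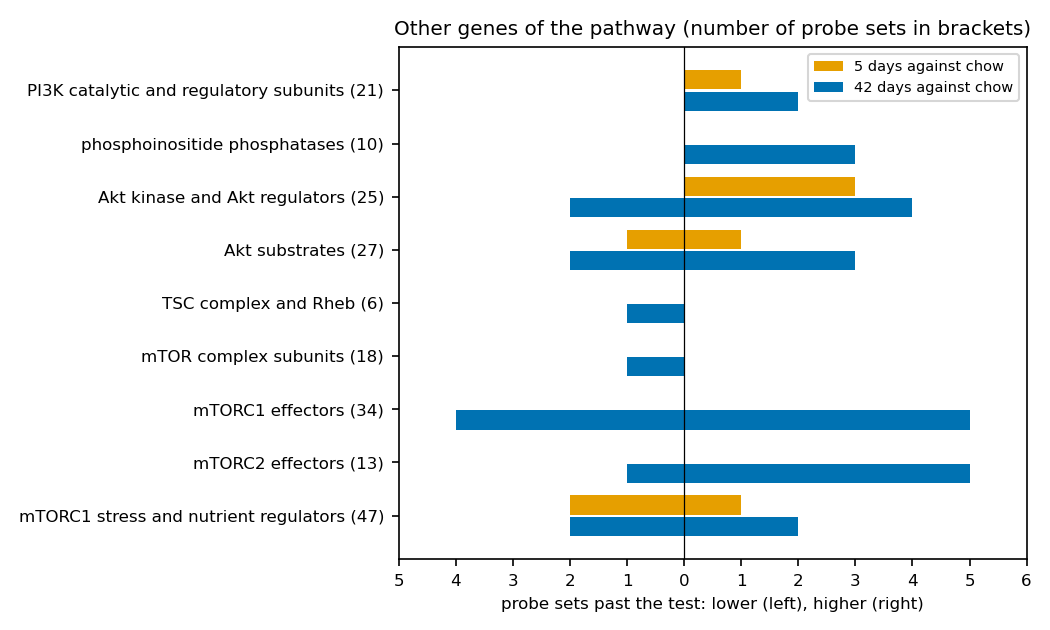
Number of probe sets past the test against chow in each role of the 87 other pathway genes (rows, number of probe sets in brackets), with lower ones to the left of 0 and higher ones to the right, at 5 days (orange) and 42 days (blue). At 42 days 5 of 34 probe sets for effectors of the raptor complex rose and 4 fell, and 5 of 13 for the Rictor complex rose and 1 fell. The latter lay in 2 genes that only rose and 1 with both. Of 25 for Akt regulators 4 rose (2 genes) and 2 fell (2 genes), and of 10 for phosphoinositide phosphatases 3 rose (2 genes) and 0 fell. Over all probe sets 4.65% rose and 4.13% fell.

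For the member probe set with the smallest p in each comparison, the genes with the most similar pattern over the 12 arrays were looked up, as a description. Rptor 1430784_a_at was most like Cfl2 (Pearson r = 0.948), P2rx2 (0.922) and Rab1a (0.92), and Pdpk1 1416501_at most like Cnp (0.95), Rps6ka3 (0.933) and 2900026A02Rik (0.929). Mtor 1446185_at was most like 4921511C10Rik (0.935), Alg12 (0.932) and Sel1l2 (0.929). With each group's mean taken away, the nearest became Gpr108 for Rptor (0.919), Dhrs3 for Pdpk1 (0.946) and Gal3st2 for Mtor (0.929), so none of the nearest genes was shared between the 2 ways of looking.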

How the data were processed

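Per the labels, biotin-labelled cRNA from 12 skeletal muscle samples was hybridised to Affymetrix arrays, and the authors deposited RMA values per probe set. The deposited values are on the log2 scale, as their range of 3.67 to 15.46 shows. RMA is named in the submitters' processing notes with no version, and the software is not given in the sources used here. RMA corrects background, normalizes between arrays and summarises probes, so a probe that misreads its gene acts on the whole probe set.

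Groups came from the sample titles. Of 45098 probe sets, 61 were array controls and were not tested, and dim ones were kept. Names came from the platform annotation (34945 probe sets with 1 symbol, 932 with several, 9160 with none), and all 33 member probe sets matched RefSeq by Entrez identifier. A linear model with 3 group means was fitted to each of 45037 probe sets with limma 3.58.1 in R 4.3.3 (eBayes, constant prior, 9 residual and 6.26 prior degrees of freedom), with 3 two-sided contrasts and Benjamini-Hochberg adjustment over all probe sets. Called means an adjusted p under 0.05. Beside a change ± gives the SE, beside a group mean the SD, and folds are 2 to the size of the change. The procedure was tested on simulated data.

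The members, lists, tests and alternatives were chosen with earlier results of these data known. All probe sets of the 9 genes are described. Of the 94 listed pathway genes, up to 12 probe sets past the test with the smallest p per contrast were to be named; 7 genes without a probe set of a single symbol were not analysed here. Most similar genes were taken by Pearson correlation, 3 per contrast, for the member probe set with the smallest p, over 12 arrays and again after subtracting group means. Alternatives were quantile normalization, cyclic loess, centring on the array median, leaving out the 40% dimmest probe sets, 1 probe set per gene, a fit of the 8 arrays compared, a replicate block, a threshold of 0.1, 2 covariates and leaving out each array. With arrays there is no depth, and precision is limited by the 12 of them. Promoter windows were matched by symbol for 9 of 9 genes in RefSeq on GRCm38.p6. No coordinates of the array itself were used.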

Additional observations from a re-analysis of the deposited data

Results flagged for a closer look

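In 12 of the 183 groups of 4 arrays examined, 1 array stood far from the other 3, where chance alone gives about 1 in 20. Among the members, Pik3ca 1429435_x_at read 9.76 on 5-day array 3, against 9.42 to 9.47 on the others, and Pik3r1 1451737_at read 8.23 on that same array, against 8.53 to 8.54. Pik3r1 1425514_at read 8.55 on 42-day array 3 (others 8.15 to 8.17), and Akt1 1416657_at 10.04 on chow array 1 (others 10.23 to 10.27). Tsc1 1455252_at read 10.53 on chow array 3 (others 10.40 to 10.41). On 5-day array 4, 3 probe sets were low, with 8.77 for Mtor 1436267_a_at (others 8.95 to 8.97), 7.18 for Rptor 1430784_a_at (others 7.21) and 6.38 for Rptor 1458472_at (others 6.70 to 6.74). Rictor 1441753_at read 6.34 on 42-day array 2 (others 6.46). In the pathway list, Trib1 1424880_at read 9.08 on chow array 2 (others 9.26 to 9.29), Pik3c3 1425580_a_at 9.15 on 42-day array 4 (others 9.09 to 9.10) and Eef2k 1439860_at 9.22 on 42-day array 4 (others 9.33 to 9.35).

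For 9 member probe sets the change against chow differed between 42 and 5 days by limma. These differences were -0.23 for Pik3ca 1460326_at, -0.33 for 1429434_at, -0.35 for 1429435_x_at and -0.39 for 1453134_at, 0.40 for Pik3r1 1425515_at and 0.27 for 1451737_at, -0.27 for Pdpk1 1415729_at and -0.33 for 1416501_at, and -0.26 for Rictor 1435698_at. Against chow, the changes of both Pdpk1 probe sets and of Pik3ca 1460326_at did not pass the test at either time.

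In the pathway list 12 named probe sets differed in the same way. Higher at 42 than at 5 days were Ndrg1 1450977_s_at by 0.27, Sgk3 1420918_at by 0.26 and Depdc5 1457500_at by 0.30. Lower were Eif4ebp1 1434976_x_at at -0.33, the elongation factor kinase Eef2k at -0.31, Gsk3b 1451020_at at -0.31 and 1437001_at at -0.25, Tbc1d1 1447016_at at -0.78, Prkca 1437393_at at -0.34, the class III PI3K subunit Pik3r4 at -0.26, the phosphatase subunit Ppp2ca at -0.32 and the stress sensor Sesn3 at -0.31. Their adjusted p-values by limma ran from 0.0201 to 0.0488.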

How the results depend on the processing

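No change of a member probe set that passed the test changed direction under any alternative run. In what follows, counts are given for all probe sets, then the 33 of the 9 genes, the 201 of the pathway list and, where run, the 24 pairs. At 5 days against chow (1445, 0, 9 and 0) they were 482, 0, 2 and 1 after quantile normalization, 502, 0, 2 and 1 after cyclic loess, 2771, 1, 27 and 0 with arrays centred on their median, 2041, 0, 11 and 1 without the 40% dimmest probe sets, 692, 0 and 3 with 1 probe set per gene, 4770, 2, 24 and 4 at an adjusted p under 0.1, 533, 0, 4 and 0 with the 3-prime minus 5-prime covariate, 2, 0, 0 and 0 with the adipocyte covariate and 7, 0, 0 and 0 with only the 8 arrays compared. At 42 days against chow (3953, 10, 37 and 11) they were 1011, 1 and 11 with 1 probe set per gene, 6114, 14, 52 and 11 at the looser threshold, 17, 0, 0 and 0 with the 3-prime minus 5-prime covariate, and 1435, 2, 10 and 5 with the adipocyte covariate. The 10 member changes lost or kept there had 59.5% to 152% of their size with the first covariate and 78.1% to 109% with the second, with larger SEs. The other settings at 42 days stayed within 1.5 times. Between 42 and 5 days (2692, 9, 15 and 7) they were 1210, 4, 7 and 4 after quantile normalization, 1128, 2, 5 and 4 after cyclic loess, 5221, 10, 39 and 7 with centring, 3864, 10, 25 and 6 without the dimmest, 1550, 4 and 10 with 1 probe set per gene, 6769, 14, 33 and 11 at the looser threshold, 1, 0, 0 and 0 with the 3-prime minus 5-prime covariate, and 2903, 5, 16 and 7 with 8 arrays. The exact permutation test of the pairs gave 0, 0 and 0 past its adjusted threshold. Its smallest p is 0.0286, and at 42 days against chow the smallest adjusted p over the 24 pairs was 0.0527. The cause of these shifts was not tested, except that 1 probe set per gene leaves 9 of the 33 and 8 arrays leave fewer degrees of freedom.

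Without 1 array, the count over all probe sets ran from 5 to 1591 at 5 days, 1945 to 4407 at 42 days and 32 to 3173 between the times. For the 9 genes the ranges were 0 to 1, 5 to 12 and 0 to 9, for the pathway list 0 to 9, 20 to 44 and 0 to 18, and for the pairs 0 to 1, 8 to 11 and 2 to 8. At 5 days the lowest count came without chow array 3 or 5-day array 2. With the replicate number as a block, the counts for the 9 genes were 0, 10 and 9, and 99 of 99 member changes kept their side of the threshold. Whether the replicate numbers mark a pairing was not tested. The correlation was over 0.1 in 4 of 12 same-numbered pairs, among them all pairs of replicate 1 (0.11 to 0.18), and ran down to -0.18. Of the 12 arrays, 4 were most like one of their own number. The scalings moved the median of all probe sets by under 0.1. Signal over background limits the dim probe sets of Rictor, Tsc1, Mtor and Rptor, and no detection calls were used.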
